A study of Mus musculus with 8 samples.

Results

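Cytosolic ribosomal protein genes were followed in liver RNA of C57BL/6 mice given rilpivirine and of control mice. They were taken as the genes named Rpl or Rps with a number (and an optional a, x, y or l) or Rplp0 to Rplp2, where a probe set carried that symbol alone, with the probe set of the highest mean over all 8 arrays for each symbol. This gave 63 genes of 22180 measured, 40 of the large subunit and 23 of the small subunit. The labels put 4 samples in the rilpivirine group and 4 in the control group, each hybridised to an Affymetrix whole-transcript array. Rilpivirine is a non-nucleoside inhibitor of HIV reverse transcriptase and was given by mouth every day at a dose described as matching human use. All 8 samples, controls included, are labelled as non-alcoholic fatty liver disease. Both a normal and a high-fat diet are mentioned, but the diet of a given sample and the age of the mice are not stated. Nothing in them ties a sample to its own mouse. The p-values therefore reflect how far the labelled replicates scatter, and that scatter may be technical. Precision is limited by the small number of arrays, 4 in each group.

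Ribosomal proteins surround the ribosomal RNAs in the small subunit, which reads the messenger RNA, and the large subunit, which joins amino acids. Their transcripts are among the most abundant messenger RNAs of most cells. In mammals many of them belong to the TOP class: they begin with a C followed by an unbroken stretch of C and T (U in the RNA), and their translation is held back by LARP1 when the kinase complex mTORC1 is inactive. The liver makes large amounts of plasma protein and keeps a correspondingly large pool of ribosomes. Ribosomal protein genes also have many processed pseudogenes, near-identical copies whose probes can share signal with the parent gene.

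The start sites of these genes are shown because the pyrimidine stretch at the start is the sequence feature the family is known for, and the choice of these members was made after their values were seen. RefSeq promoter sequences (GRCm38.p6) were found for 48 of the 63 genes. Each line below gives 20 bases before and 10 bases from the RefSeq start, on the gene's strand, with the longest run of at least 7 C or T in capitals.
Rpl14 (chr9:120571497-120571526, plus strand): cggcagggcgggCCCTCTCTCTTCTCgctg
Rpl15 (chr14:18270977-18271006, minus strand): ggattgtgggagaaagCCTTCTTCCTTTCC
Rpl28 (chr7:4792945-4792974, plus strand): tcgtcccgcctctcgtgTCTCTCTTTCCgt
Rpl35 (chr2:39005122-39005151, minus strand): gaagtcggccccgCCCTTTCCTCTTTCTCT
Rpl38 (chr11:114668560-114668589, plus strand): ccggaagcggaagcctcgTTCTTTCCCCgt
Rps6 (chr4:86857358-86857387, minus strand): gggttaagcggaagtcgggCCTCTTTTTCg
Rps10 (chr17:27635235-27635264, minus strand): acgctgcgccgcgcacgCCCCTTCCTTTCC
Rps25 (chr9:44407694-44407723, plus strand): TCCTTTTTTTCCgacatcttagcgaggctg
Rps13 (chr7:116334181-116334210, minus strand): cgcgcgagagcaaacgtcggtgagtggcgt
Rps23 (chr13:90923102-90923131, plus strand): acggggccttcggctgggcggggcttcccg
In Rpl14, Rpl15, Rpl28, Rpl35, Rpl38, Rps6 and Rps10 the run spans the RefSeq start, in Rps25 it lies upstream of it, and in Rps13 and Rps23 this window holds no such run. A C at the start followed by at least 4 C or T was found in 11 of the 48 genes (22.9%), against 3.01% of 27025 genes with a RefSeq promoter. A run of at least 7 C or T anywhere in the window was found in 27 of 48 (56.2%), against 21.9% of all genes. The letters CCGGAAG, on either strand of the 300 bases of the promoter, were found in 21 of 48 (43.8%), against 9.93%. RefSeq starts can differ from the starts used in liver.

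Levels of the 63 genes on these arrays ran from 1.95 log2 for Rpl32l to 11.03 log2 for Rpl21, as means over 8 arrays. A total of 37 genes lay at or above the 75th percentile of all genes measured (5.63 log2) and are called bright here, 24 of the large and 13 of the small subunit. Between the 25th and the 75th percentile lay 21 genes, and 5 lay under the 25th percentile (2.72 log2) and were not tested. These 5 were Rpl11 at 2.51 log2, Rpl27a at 2.58, Rplp2 at 2.46, Rpl10l at 2.17 and Rpl32l at 1.95. Rpl11 binds 5S ribosomal RNA together with Rpl5, Rpl27a is a core protein of the large subunit, and Rplp2 forms part of the acidic stalk, so these are proteins of every cytosolic ribosome. Their probe sets of a single symbol nevertheless gave values below the 25th percentile of genes in liver. Probe sets that list the symbol beside others were bright for Rplp2 (with Snora52, 9.45 log2) and Rpl27a (with Gm13981, 9.41 log2). Closest to the filter on the other side were Rpl30 at 2.82 log2 and Rpl39 at 3.03. A probe set that lists Rpl30 with Gm12191 measured 8.68 log2. Closest to the 75th percentile were Rps29 at 5.53 below it and Rps13 at 5.72 above it. Values of different probe sets depend on their probes and do not rank the amounts of the messenger RNAs.

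**Figure D1:**
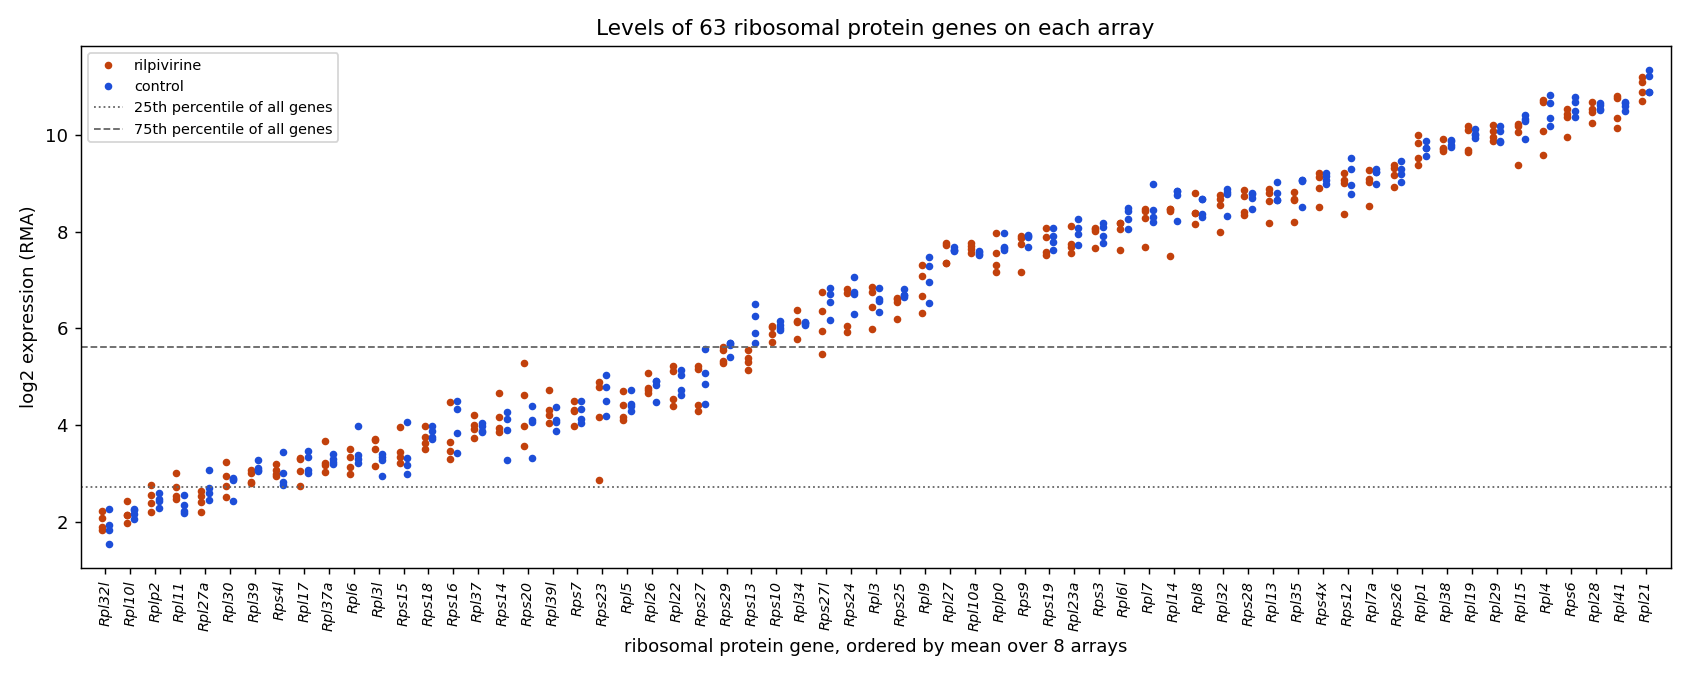
Log2 expression (vertical axis) of 63 ribosomal protein genes (horizontal axis, ordered by mean) on each of 8 arrays, with rilpivirine arrays as orange points on the left and control arrays as blue points on the right of each gene. Dotted and dashed lines mark the 25th percentile (2.72 log2) and the 75th percentile (5.63 log2) of all genes, and the points of both groups overlap in most genes.

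Probe sets of a single symbol differed widely. The 63 genes had 102 probe sets, and 23 genes had more than 1. In 19 of these 23 the brightest and dimmest probe set lay over 2 log2 apart, with a median gap of 4.32 log2. Rps26, of the small subunit, measured 9.22 log2 in the probe set used and 1.55 log2 in the other, the widest gap at 7.68 log2. Rps12 had 8 probe sets, of which 6 held identical values, and Rpl23a and Rps19 each had a pair with identical values. Of the 39 probe sets not used, 24 lay under the 75th percentile. Rpl6 measured 3.36 log2 and Rpl6l, by its symbol a copy of it, 8.16 log2, so that signal of these near-identical genes may be split between their probe sets in a way the files do not resolve. Among probe sets of a single symbol, no gene had a pair with differences between the groups of opposite sign that both exceeded 0.2 log2. Probe sets that list several symbols were not part of that comparison. Rpl27a had -0.26 in the probe set used, 0.60 in one shared with Snora3 and Gm13981, and -0.25 in one shared with Gm13981. Rps13 had -0.74 in the probe set used and 0.35 in one of the shared ones given below.

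Rilpivirine replicate 2 stood apart before any comparison. It correlated with the remaining 7 at 0.965 on average, where each of those averaged 0.976 to 0.981, and the standard deviation of its values over all probe sets was 1.94 log2, against 2.03 to 2.10. The mean deviation of 81 probe sets for small nucleolar RNAs was 0.49 log2 on this array, against -0.59 to 0.27 elsewhere. Of the 58 ribosomal protein genes tested, 34 had their lowest value on this array, as had 5025 of all 16635 genes tested. Hepatocyte markers were high in all groups: Alb, which encodes albumin, averaged 13.30 log2 with rilpivirine and 13.25 log2 in controls, and 7 measured hepatocyte markers had a median difference of 0.01.

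None of the 58 ribosomal protein genes tested differed between rilpivirine and control livers at a Benjamini-Hochberg adjusted p of 0.05 in limma. The same held for all 16635 genes, of which 0, or 0% as background, passed. Before adjustment, 1 of the 58 had p under 0.05, lower with rilpivirine, and 0 were higher. Over all genes 3.21% were lower and 2% higher by that rule, 5.21% in either direction (867 genes). With so few genes, a count of 1 of 58 does not set the ribosomal protein genes apart from this background. The groups did not overlap in 2 of 58 genes, Rps13 and Rps25, both lower with rilpivirine, where the background for lower values was 1.73% and for higher values, which no member showed, 1.3% (3.04% in either direction). The 95% confidence intervals of 57 genes included 0, and the median distance from estimate to bound was 0.35 log2 over the 58.

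The differences leaned to lower values with rilpivirine. Of 58 genes 45 had a difference below 0 and 13 above, where 56.9% of all genes tested lay below 0. The median difference was -0.11 log2, against -0.03 over all genes tested, and the differences ran from -0.74 in Rps13 to 0.40 in Rps20. The large subunit had a median of -0.11, with 27 of 35 genes below 0, and the small subunit one of -0.16, with 18 of 23 below 0. The lean lay in the bright genes: 34 of 37 bright genes were below 0, with a median of -0.16, while 11 of 21 in the middle were, with a median of -0.01. Bright genes in general also leaned this way, with 69.4% of 5545 below 0 and a median of -0.09. The 3 bright exceptions were Rpl10a, Rpl29 and Rpl34, with differences of 0.11, 0.03 and 0.01. In bulk liver, fewer cells of a type and less RNA per cell cannot be told apart.

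**Figure D2:**
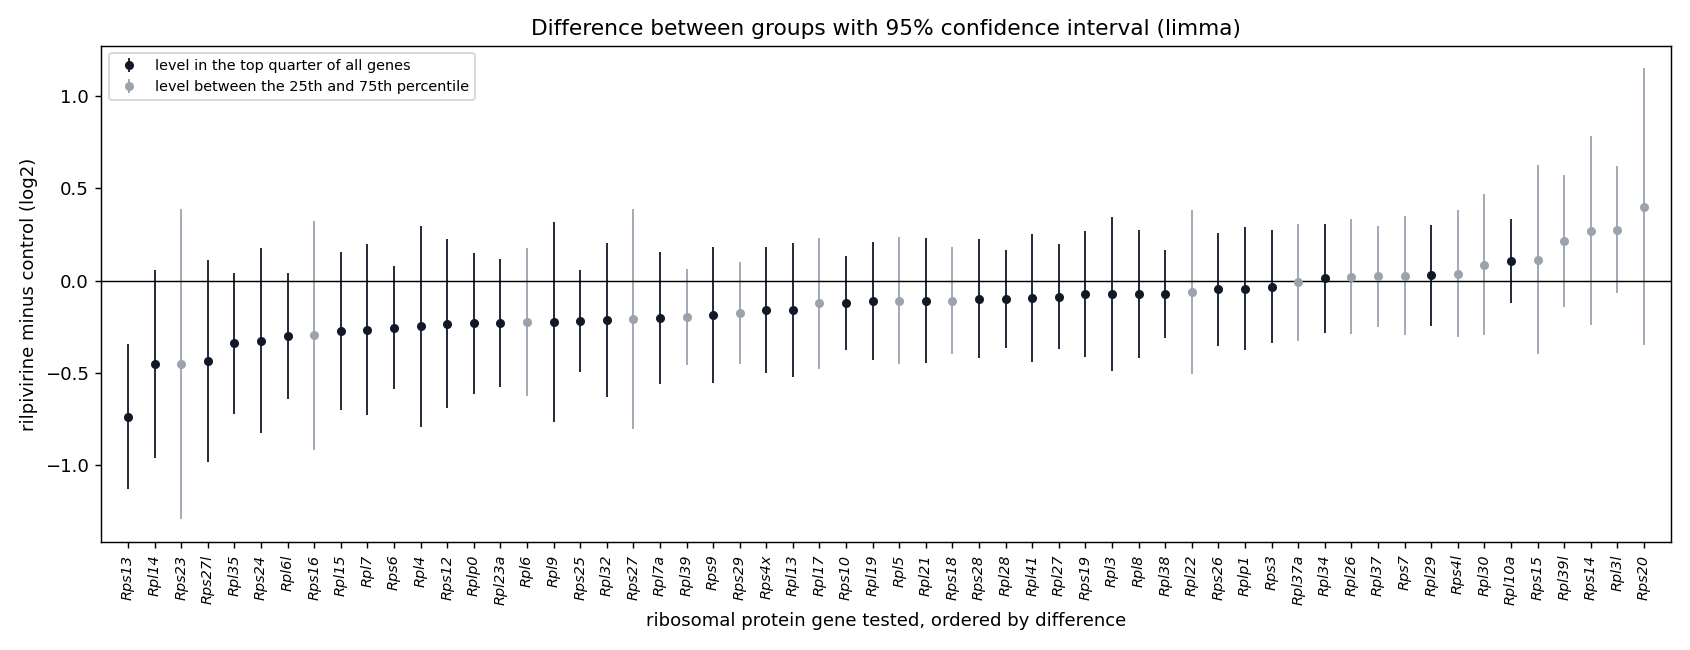
Difference in log2 expression, rilpivirine minus control (vertical axis), with 95% confidence intervals from limma, for the 58 ribosomal protein genes tested (horizontal axis). Black points are bright genes and grey points are genes in the middle; 45 points lie below 0, and the interval of Rps13 alone excludes it.

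Much of this lean came with a single array. Averaged over the 37 bright genes, the level was 8.34 ± 0.22 log2 with rilpivirine and 8.53 ± 0.13 log2 in controls (SD, n = 4 each). As mean deviations from each gene's own 8-array mean, the rilpivirine replicates 1 to 4 lay at 0.04, -0.40, -0.10 and 0.09 log2, and the control replicates 1 to 4 at 0.10, -0.08, 0.12 and 0.23 log2. The groups overlapped: rilpivirine replicates 1 and 4 lay above control replicate 2, and rilpivirine replicate 2 lay far below all others. On that array 3 of the 37 genes were above their own mean and 28 had their lowest value. Among all 5545 bright genes, 1285 were above their own mean on it and 2784 had their lowest value there. On control replicate 4, 33 of the 37 and 3321 of the 5545 were above their own mean. All 5545 bright genes together were at -0.27 log2 on rilpivirine replicate 2, and between -0.03 and 0.10 on the other arrays. Without rilpivirine replicate 2 the median of the 37 genes was -0.05 and 30 lay below 0, against a median of -0.02 and 55.2% below 0 in all bright genes. The difference became smaller in size in 31 of the 37 genes when this array was left out.

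**Figure D3:**
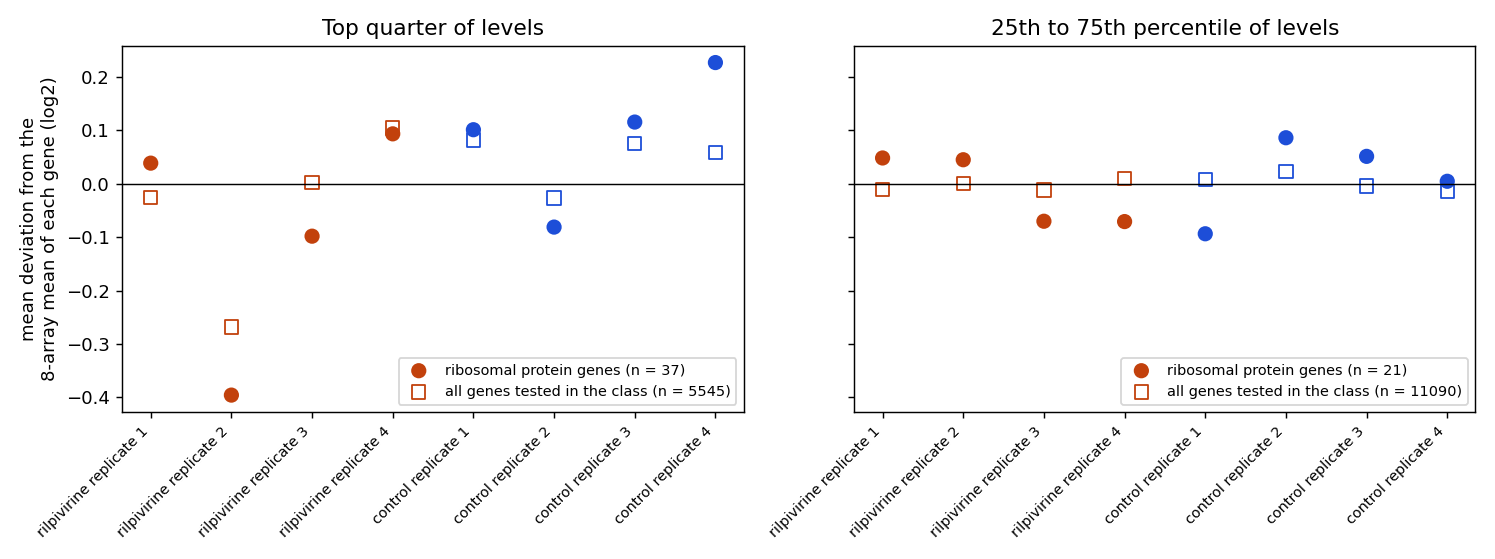
Mean deviation from each gene's 8-array mean in log2 (vertical axis) on each array (horizontal axis), for ribosomal protein genes (filled circles) and all genes tested of the same level class (open squares); orange marks rilpivirine and blue control. Rilpivirine replicate 2 is the lowest array at -0.40 in the 37 bright genes and lies at 0.04 in the 21 genes of the middle class.

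Genes in the middle of levels did not share this pattern. Their mean deviations were between -0.07 and 0.05 log2 on the rilpivirine arrays and between -0.09 and 0.09 log2 on the control arrays, so that both groups covered nearly the same range. Rilpivirine replicate 2 had the lowest value of 6 and the highest value of 7 of these 21 genes. All 11090 genes of this level class lacked the pattern too, with a median difference of -0.002 and 50.6% below 0. On rilpivirine replicate 2 their mean deviation was -7.5e-05 log2, and 2241 of them had their lowest and 2712 their highest value there.

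**Figure D4:**
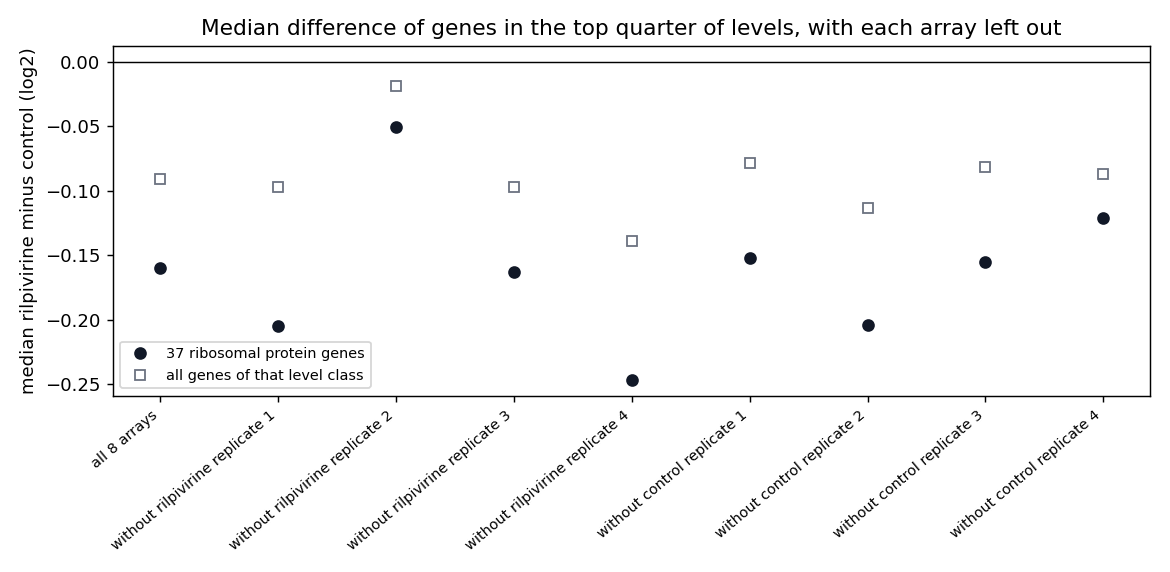
Median difference, rilpivirine minus control in log2 (vertical axis), over bright genes with all 8 arrays and with each array left out (horizontal axis); black circles are 37 ribosomal protein genes and grey squares all 5545 genes. All medians lie below 0, and the values nearest to 0 are those without rilpivirine replicate 2, at -0.05 for ribosomal protein genes and -0.02 for all genes.

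Rps13, a small subunit protein that lies at the face toward the large subunit, gave the largest difference. It measured 5.56, 5.14, 5.31 and 5.39 log2 in rilpivirine replicates 1 to 4, against 6.25, 5.69, 5.91 and 6.52 log2 in control replicates 1 to 4. All 4 rilpivirine values lay below all 4 control values. The difference was -0.74 ± 0.18 log2 (SE), a 1.67-fold lower level, with an unadjusted p of 0.00169 and an adjusted p of 0.773 in limma. Without rilpivirine replicate 2 it was -0.67. Over 18 alternative settings the difference ranged from -0.87 to -0.59 and the adjusted p in limma from 0.393 to 0.999. A further 3 probe sets list this symbol beside others, at levels of 2.86 to 3.66 log2, and did not share one direction: their differences were -0.24, -0.09 and 0.35, the last of which was 0.44 without rilpivirine replicate 2. Which of the genes they list they measure, and whether the probe set used reads the parent gene or a copy, was not tested.

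Among the other small subunit genes, Rps25, which is needed for initiation at some viral internal ribosome entry sites, also had groups that did not overlap. It measured 6.60, 6.20, 6.62 and 6.56 log2 with rilpivirine and 6.82, 6.69, 6.69 and 6.65 log2 in controls. The gap between the highest rilpivirine and the lowest control value was narrow, and the difference was -0.22 ± 0.13 (SE), or -0.12 without rilpivirine replicate 2. Rps6, the substrate of the S6 kinases, had a difference of -0.26 ± 0.15 (SE), or -0.13 without rilpivirine replicate 2.

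The small subunit also held the 4 most variable genes. None of their differences was larger in size than its own SD within groups, which ran from 0.48 (Rps27) to 0.70 log2 (Rps23). Rps23, which lines the decoding centre, measured 4.89, 2.88, 4.16 and 4.79 log2 with rilpivirine and 5.04, 4.49, 4.80 and 4.20 log2 in controls. The low value of rilpivirine replicate 2 set its difference, which was -0.45 ± 0.38 (SE) with this array and -0.02 without it. Rps20, of the head of the subunit, measured 4.62, 5.29, 3.98 and 3.58 log2 with rilpivirine and 3.32, 4.39, 4.10 and 4.06 log2 in controls. Here rilpivirine replicate 2 was the highest array, and the difference of 0.40 ± 0.34 (SE) became 0.09 without it. Rps16 and Rps27 had differences of -0.30 ± 0.28 and -0.21 ± 0.27 (SE). Without rilpivirine replicate 2, that of Rps16 was -0.55, as this array was the highest of its group, and that of Rps27 was -0.05. These probe sets averaged 3.88 log2 for Rps16 and 4.88 for Rps27, and brighter ones list the symbols beside others. The brighter one with Rps16 (8.81 log2) had a difference of -0.17, or -0.05 without that array. The one with Rps27 and Rps27rt (8.89 log2) had -0.51, or -0.42 without it. Rps10, near the entry channel of the messenger RNA, was by contrast among the least variable, with values of 5.72 to 6.05 log2 with rilpivirine and 5.96 to 6.15 log2 in controls.

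**Figure D5:**
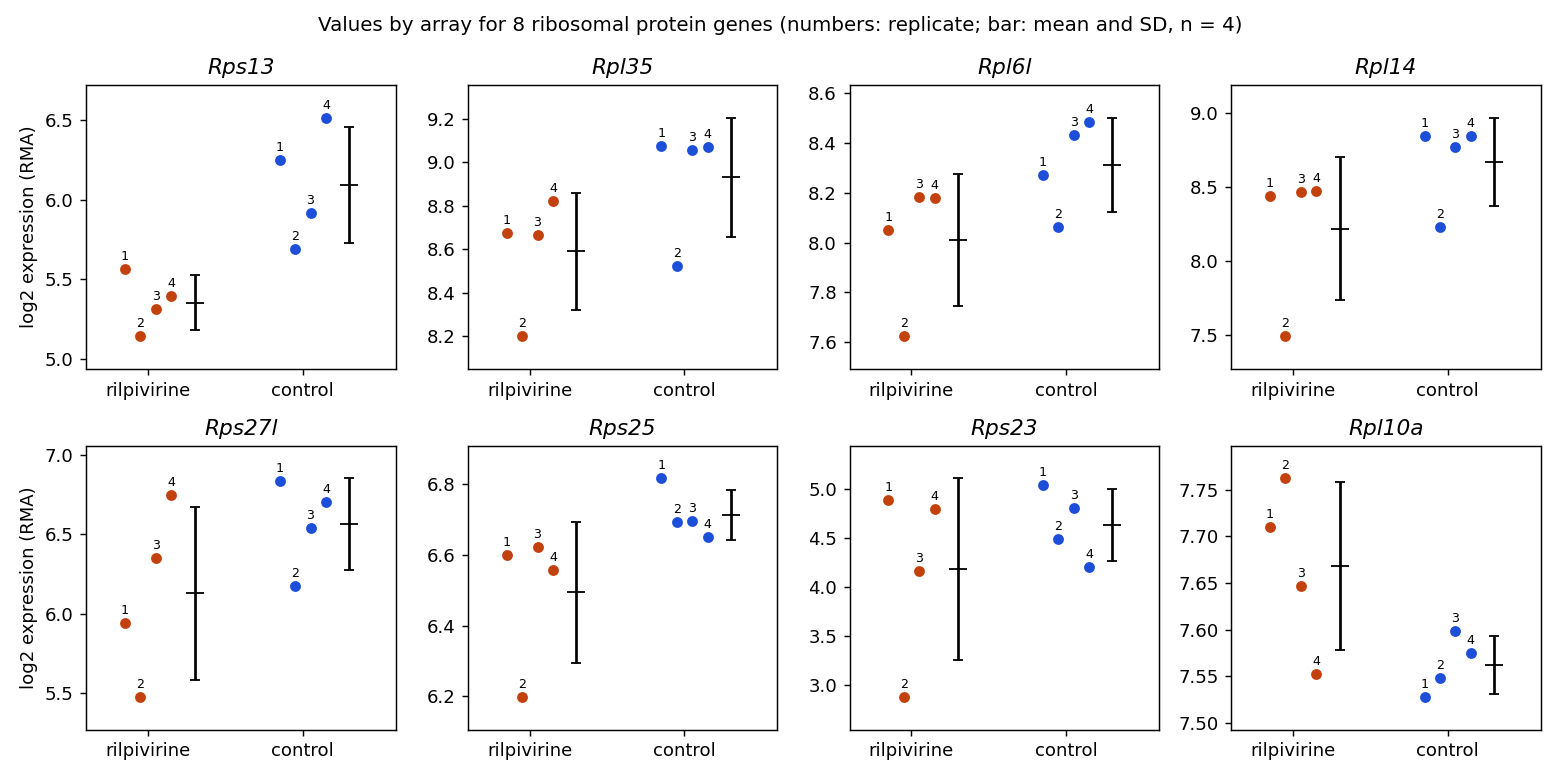
Log2 expression (vertical axes, which differ in range and do not start at 0) of 8 ribosomal protein genes by array, with rilpivirine in orange on the left and control in blue on the right; small numbers are replicates, and black bars give the mean and SD (n = 4). Rps13 and Rps25 show no overlap between groups, and rilpivirine replicate 2 is the lowest point in each panel but that of Rpl10a, where it is the highest at 7.76.

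In the large subunit no gene reached an unadjusted p of 0.05. Rpl35, which sits at the exit of the peptide tunnel, measured 8.67, 8.20, 8.66 and 8.82 log2 with rilpivirine and 9.08, 8.52, 9.06 and 9.07 log2 in controls. Replicate 2 was the lowest of its group in both, and the difference was -0.34 ± 0.17 (SE), or -0.21 without rilpivirine replicate 2. Rpl14 measured 8.44, 7.49, 8.47 and 8.47 log2 with rilpivirine and 8.84, 8.23, 8.77 and 8.84 log2 in controls. Its difference was -0.45 ± 0.23 (SE), or -0.21 without rilpivirine replicate 2, with the groups overlapping only through control replicate 2. Rpl6l measured 8.05, 7.62, 8.18 and 8.18 log2 with rilpivirine and 8.27, 8.06, 8.43 and 8.48 log2 in controls, a difference of -0.30 ± 0.15 (SE), or -0.17 without rilpivirine replicate 2.

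Other large subunit genes were tighter. Rpl10a, of the mobile L1 stalk, had the smallest scatter of the genes tested, 0.07 log2 as the SD within groups, lower than in all but 0.872% of the genes tested. It measured 7.71, 7.76, 7.65 and 7.55 log2 with rilpivirine and 7.53, 7.55, 7.60 and 7.58 log2 in controls, so the groups overlapped through rilpivirine replicate 4 alone. Its difference was 0.11 ± 0.10 (SE). Rpl38, which has been linked in mice to the translation of Hox transcripts, measured 9.67 to 9.92 log2 with rilpivirine and 9.76 to 9.89 log2 in controls, a difference of -0.07 ± 0.11 (SE), or -0.04 without rilpivirine replicate 2. Rpl39, of the tunnel exit, was dim, at 2.80 to 3.07 log2 with rilpivirine and 3.05 to 3.28 log2 in controls, with a difference of -0.20 ± 0.12 (SE). Over the 58 genes the SD within groups had a median of 0.23 log2, against 0.21 over all genes tested, and ran from 0.07 to 0.70.

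The stalk of the large subunit recruits the elongation factors. Its base protein Rplp0 measured 7.97, 7.32, 7.16 and 7.56 log2 with rilpivirine and 7.63, 7.69, 7.97 and 7.67 log2 in controls, a difference of -0.23 ± 0.17 (SE) with overlapping groups. Rplp1 had a difference of -0.04 ± 0.15 (SE), which was 0.06 without rilpivirine replicate 2, and Rplp2 was under the filter.

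Several ribosomal protein transcripts serve as reference genes in quantitative PCR. Of 7 on a list of such transcripts that were measured, all 7 had a difference below 0, with a median of -0.18, and 0 had an unadjusted p under 0.05. By comparison, 45 of all 58 members tested, 56.9% of all genes tested and 69.4% of all bright genes lay below 0. Rpl32 had a difference of -0.21 ± 0.19, Rps29 one of -0.18 ± 0.12, Rpl4 one of -0.25 ± 0.25, Rps18 one of -0.11 ± 0.13, Rpl19 one of -0.11 ± 0.14 and Rpl27 one of -0.09 ± 0.13 (SE). The probe set used for Rps18 averaged 3.78 log2, and dimmer ones of that gene had differences of 0.13 and -0.04. A dimmer probe set had 0.07 for Rpl19, -0.02 for Rplp0, -0.22 for Rpl27 and -0.52 for Rpl4. Without rilpivirine replicate 2 the median of the 7 was -0.04, and all 7 stayed below 0. Without rilpivirine replicates 1 and 2 together, Rpl4 had a difference of 0.18.

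Free Rpl5, Rpl11, Rpl23, Rpl26 and Rps7 are known to bind MDM2, the ligase that marks p53 for destruction, when ribosome assembly fails. Of the 3 tested here, Rpl5 had a difference of -0.11 ± 0.16, Rpl26 one of 0.02 ± 0.14 and Rps7 one of 0.03 ± 0.15 (SE), all with overlapping groups. Without rilpivirine replicate 2 those of Rpl5, Rpl26 and Rps7 were -0.23, -0.07 and -0.05. Brighter probe sets that list Rpl5 or Rpl26 beside another symbol had the opposite sign with all arrays. The one with Rpl5 and Rpl5-ps2 (8.79 log2) had a difference of 0.24, or 0.07 without that array. The one with Rpl26 and Gm15772 (9.42 log2) had -0.12, or -0.06 without it. Of 7 measured genes around p53, which included Mdm2 and Cdkn1a, 5 were below 0 and 2 above, with a median of -0.07, and 0 had an unadjusted p under 0.05. Bbc3, which encodes the pro-apoptotic PUMA, had a difference of -0.13 ± 0.12 and Myc, a driver of ribosome production, one of -0.14 ± 0.20 (SE). Leaving out rilpivirine replicate 2 gave a median of 0.08 for these 7 genes.

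Some ribosomal proteins have paralogs with tissue-restricted expression. The 6 listed paralogs tested had levels of 3.03 to 6.35 log2, with a median of 4.35, against 4.67 over all genes tested. Such levels depend on the probes and do not show where a paralog is used. Rpl3l, the copy of Rpl3 used in skeletal muscle and heart, measured 3.70, 3.72, 3.52 and 3.15 log2 with rilpivirine and 2.95, 3.34, 3.29 and 3.40 log2 in controls, a difference of 0.28 ± 0.16 (SE). Only rilpivirine replicate 4 lay within the control range. Rpl39l, of the testis, had a difference of 0.22 ± 0.16 (SE), or 0.08 without rilpivirine replicate 2, and Rps4l one of 0.04 ± 0.16 (SE). Rpl7l1 and Rpl22l1, copies outside the naming rule, had differences of 0.15 and 0.01. Rps27l, a paralog of Rps27 and target of p53, was the brightest of the 6 listed paralogs tested and the only one of them below 0. It measured 5.94, 5.48, 6.35 and 6.75 log2 with rilpivirine and 6.84, 6.18, 6.54 and 6.71 log2 in controls, a difference of -0.44 ± 0.25 (SE), or -0.22 without rilpivirine replicate 2. All 7 measured paralogs of the list, with Rpl10l under the filter, lacked a call. Rpl6l, by its symbol a copy of Rpl6, was not on the list. It was brighter than Rps27l, at 8.16 log2, and also below 0, at -0.30, or -0.17 without rilpivirine replicate 2.

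Signals outside the rule were also read. A total of 57 probe sets listed a ribosomal protein symbol beside other symbols, and 32 of them reached the 75th percentile. Of these 32, 20 had a difference below 0 and 12 above, with a median of -0.14, or -0.05 without rilpivirine replicate 2. The share below 0 was 62.5%, under the 69.4% of all bright genes. This share includes probe sets that also list a small nucleolar RNA. Those among the 32 all lay above 0, from 0.04 (Snord32a with Rpl13a) to 0.60 (Snora3 with Rpl27a). Some without one were above 0 too, such as Rps2 with Gm10420 and Gm5978 at 0.47. Which of the listed RNAs such probe sets read was not tested. On rilpivirine replicate 2 the mean deviation of the 32 was -0.14 log2, and 11 of 32 were above their own mean. Of 5 measured ribosomal protein genes and paralogs with names outside the rule, 3 were below 0 and 2 (Rpl7l1 and Rpl22l1, above) were not, with a median of -0.18, or -0.06 without rilpivirine replicate 2. Rps3a1 had a difference of -0.42 ± 0.20, Fau, which encodes a ubiquitin-like fusion to a small subunit protein, one of -0.27 ± 0.15, and Rpsa, which also acts as a laminin receptor, one of -0.18 ± 0.16 (SE). Leaving out rilpivirine replicate 2 gave -0.26 for Rps3a1, -0.17 for Fau and -0.06 for Rpsa.

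Members that carry the pyrimidine start can be set beside those that do not, as a description. The 9 tested genes with a C at the RefSeq start followed by at least 4 C or T had a median difference of -0.21, and all 9 were below 0. Of these 9, 7 were bright genes, and without rilpivirine replicate 2 the median was -0.09. The 34 tested genes with a promoter but no such start had a median of -0.11, with 26 below 0, or -0.04 without that array, and 21 of them were bright. With the looser rule of a run of at least 7 C or T, the median was -0.17 in 24 genes, of which 18 were bright. It was -0.09 in 19 genes without such a run, of which 10 were bright. Without rilpivirine replicate 2 these medians were -0.06 and -0.02. For CCGGAAG the medians were -0.11 in 18 genes that hold it and -0.16 in 25 that do not, and their order turned to -0.07 and -0.04 without that array. Bright genes numbered 11 of these 18 and 17 of these 25. The level class was not held equal in any of these comparisons.

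The rest of the translation machinery was read from lists. Of 13 factors with TOP transcripts (elongation factors, Tpt1, Pabpc1 and others), 12 were below 0, with a median of -0.18, or -0.04 without rilpivirine replicate 2. The elongation factor Eef2 had a difference of -0.30 ± 0.15 and Tpt1 one of -0.31 ± 0.23 (SE), or -0.20 and -0.13 without that array. Of 14 other initiation factors 9 were below 0 (median -0.04, or 0.03 without rilpivirine replicate 2), with Eif5 at -0.43 ± 0.34 (-0.13 without it) and Eif3c at 0.13 ± 0.12 (SE). Of 39 ribosome assembly factors 20 were above 0 and 19 below, with a median of 0.01. In this list 3 genes had an unadjusted p under 0.05 in limma, all higher with rilpivirine. Over all genes tested, 2% were higher and 3.21% lower by that rule. Among the 3 were Heatr1, of the small subunit processome, at 0.29 ± 0.13 and Rrp12, an export factor of pre-ribosomes, at 0.33 ± 0.15 (SE). Of 15 genes of RNA polymerase I and its factors, which transcribe ribosomal RNA, 7 were above 0 and 8 below (median -0.004). Taf1d had a difference of 0.28 ± 0.15 and Ttf1 one of -0.35 ± 0.21 (SE). Of 15 genes around mTORC1 11 were below 0 (median -0.12), and 1 had an unadjusted p under 0.05: Tsc1, an inhibitor of mTORC1, at -0.40 ± 0.12 (SE). Eif4ebp1, the repressor of cap-dependent initiation that mTORC1 inactivates, had a difference of -0.17 ± 0.12 (SE). No gene of any of these lists passed after adjustment over all genes.

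Many small nucleolar RNAs, which guide the modification of ribosomal RNA, are cut from introns of ribosomal protein genes. By RefSeq spans, 14 of the 63 genes hold 19 small nucleolar RNA genes, of which 10 were measured by a probe set of their own. All 10 had a difference above 0, with a median of 0.34, where 11 of the 12 tested hosts were below 0, with a median of -0.18. As background, the 81 small nucleolar RNA probe sets together deviated by 0.26, 0.49, 0.03 and -0.20 log2 on rilpivirine replicates 1 to 4. On control replicates 1 to 4 they deviated by -0.59, 0.27, -0.05 and -0.20 log2. The 10 can therefore not be told apart from small nucleolar RNAs in general. Without rilpivirine replicate 2 the hosts had a median of -0.03, with 9 below 0 and 3 above. Values of the 10 without that array are not given here. Rpl4, for example, had a difference of -0.25, or -0.02 without that array, and Snord16a, in its span, one of 0.35. Rpl32 had one of -0.21, or -0.05 without it, and Snora7a one of 0.45. Of 7 measured hosts without a protein product, 5 were below 0 (median -0.11, or 0.001 without rilpivirine replicate 2). Snhg6 had a difference of -0.53 ± 0.34, or -0.31 without that array, and Zfas1 one of 0.28 ± 0.19 (SE). The small nucleolar RNA level was highest on rilpivirine replicate 2, the array with the lowest ribosomal protein values, and its part in the result was not tested beyond the covariate, with which the median of the 58 genes was -0.08 and that of the 37 bright genes -0.08.

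No marker of another liver cell type passed adjustment over all genes. Of 8 sinusoidal endothelial markers 7 were above 0 (median 0.29), and 3 had an unadjusted p under 0.05 in limma. Over all genes tested, 2% were higher and 3.21% lower by that rule. The 8 markers together deviated by -0.14 to 0.27 log2 on rilpivirine arrays, against -0.31 to 0.02 log2 on control arrays. Of 11 Kupffer cell and macrophage markers 10 were below 0 (median -0.15) and 2, C1qa and C1qb, had an unadjusted p under 0.05, with mean deviations of -0.22 to 0.10 log2 with rilpivirine and -0.08 to 0.22 log2 in controls. Medians of the other lists were -0.08 for 8 stellate cell, 0.06 for 4 cholangiocyte, 0.02 for 8 T and NK cell, -0.07 for 4 B and plasma cell, 0.06 for 3 neutrophil and -0.15 for 2 erythroid markers. Of the 4 B and plasma cell markers, 1 was higher (Cd79a, at 0.34) and 1 lower (Mzb1, at -0.35) at an unadjusted p under 0.05 in limma. The part of these cell types in the ribosomal protein levels was not tested.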

How the data were processed

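Total RNA of snap-frozen liver (300 ng per sample) was labelled with a whole-transcript kit for Affymetrix arrays, per the labels' protocols. The authors deposited log2 expression values of 41345 probe sets, made with RMA (background correction, quantile normalization and probe summarisation), per the submitters' processing notes, which also name limma. Neither versions nor a genome build were given in the sources used here. Quantile normalization removes differences in total signal between arrays.

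The platform annotation gave 1 symbol for 23521 probe sets, several for 1814 and none listed for 16010. The brightest probe set of each symbol was kept. A filter at the 25th percentile of gene means (2.72 log2) left 16635 genes, to which limma 3.58.1 (lmFit, then eBayes; R 4.3.3) was applied without covariates, two-sided, with Benjamini-Hochberg adjustment over all genes and a threshold of 0.05. Adjusted p-values, SE and 95% intervals come from that limma fit. Scripts were tested on simulated data. The array medians lay between 3.33 and 3.45 log2, pairs of arrays correlated at 0.955 to 0.986, and no arrays were identical.

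Some ribosomal protein genes are not reported here. Members and gene lists were chosen with earlier results of these data known. Named genes were the 8 members with the smallest p, the 4 with the largest and the 4 with the smallest SD within groups, those under the filter, those with contradicting probe sets, and members of lists of paralogs, reference transcripts, MDM2-binding and stalk proteins, with the first 2 by p of each other list; some others, used as examples, were chosen after their values were seen. Alternatives were other moderation, array weights, median centring, further quantile normalization, other filters, the mean of probe sets, the replicate number as a block, left-out arrays and a covariate for small nucleolar RNA level. Plots used matplotlib 3.10.9 (Python 3.11.15).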

Additional observations from a re-analysis of the deposited data

Results flagged for a closer look

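Of 126 groups of 4 values (63 genes, each with 4 rilpivirine and 4 control arrays), 7 held a value that stood apart from the other 3 of its group, and chance alone flags about 1 in 20 groups. On rilpivirine replicate 2, Rpl14 measured 7.49 log2 against 8.44 to 8.47 on the rest of its group, Rps25 measured 6.20 against 6.56 to 6.62, and Rps3 measured 7.67 against 8.02 to 8.07. On control replicate 2, Rpl14 measured 8.23 against 8.77 to 8.84, Rpl35 measured 8.52 against 9.06 to 9.08, and Rps29 measured 5.41 against 5.66 to 5.70. On control replicate 4, Rpl30 measured 2.43 against 2.87 to 2.90, near the filter of 2.72.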

How the results depend on the processing

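Under every alternative tried, 0 ribosomal protein genes and 0 of all genes passed an adjusted p of 0.05 in limma. At an unadjusted p under 0.05 the counts were 1 of 58 and 867 of 16635. With an array left out these were 1 to 5 and 578 to 1524, highest without rilpivirine replicate 4 and, for all genes, lowest without control replicate 1. The median difference of the ribosomal protein genes stayed below 0 in all settings: with each array left out in turn it ranged from -0.18 (without rilpivirine replicate 1) to -0.04 (without rilpivirine replicate 2), and it was -0.12 with arrays centred, -0.08 after a further quantile normalization, -0.08 given the covariate for small nucleolar RNAs and -0.09 without rilpivirine replicates 1 and 2 together. The median of the bright genes ranged from -0.25 (without rilpivirine replicate 4) to -0.05 (without rilpivirine replicate 2), and between 41 and 48 of 58 genes were below 0 with an array left out. Further quantile normalization left 32 of 37 bright genes below 0, against 55.2% of all genes of that level. The bright class, and both counts of genes below 0, were added after seeing the data. Of the 28 named genes tested, the sign turned without rilpivirine replicates 1 and 2 together for Rpl26 (-0.094), Rpl4 (0.18), Rps20 (-0.19), Rps4l (-0.0022) and Rps7 (-0.092), given the covariate for Rpl26 (-0.050), Rpl4 (0.084), Rplp1 (0.062) and Rps20 (-0.10), and with array weights for Rps4l (-0.018); the cause was not tested. With an array left out, Rpl26 ranged from -0.081 to 0.071, Rplp1 from -0.15 to 0.058, Rps4l from -0.048 to 0.18 and Rps7 from -0.047 to 0.12. Same-numbered arrays of the groups correlated in their deviations at -0.25, 0.46, -0.09 and 0.07, and only number 2 correlated best with its own number, so the numbers were not taken as pairs; with the replicate block 0 genes passed, and 6 of 58 and 1071 of 16635 had an unadjusted p under 0.05.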
